A study of Mus musculus with 6 samples.

Results

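The 10 Kruppel-like factor (Klf) genes described here are Klf2, Klf3, Klf4, Klf6, Klf9, Klf10, Klf11, Klf12, Klf13 and Klf15, of 22911 genes named on the array. A gene is represented by all probes, control spots excepted, whose RefSeq accession belongs to it, which gave 14 probes in all, with 1 probe for each of 7 genes. Livers came from male mice, described in the methods as 12 weeks old when put on the diets, whose strain is not given in the sources used here. The 3 control mice ate regular granulated chow and the 3 soy mice a mixture of 75% regular chow and 25% soy bean, both for 4 weeks. No genetic change or other treatment is named for either group, and each mouse gave 1 sample of whole liver tissue and 1 single-colour Agilent array. The 8 hepatocyte markers examined, Alb, Ttr and Serpina1a among them, were well above background on all 6 arrays.

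Kruppel-like factors are transcription factors that read GC-rich and CACCC-type DNA elements through zinc fingers at their C-terminal end. The N-terminal part differs between members and recruits coactivators or corepressors, so that some members mainly activate and others mainly repress. In the liver, Klf15, Klf10 and Klf9 are known for their links to fasting metabolism, the circadian clock and glucocorticoids. Klf2 and Klf4 are best known from endothelial cells, and Klf6 from injured tissue and stellate cells.

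Values are normalized signals on the log2 scale, so that a difference of 1 is a doubling, and levels of different probes are not compared. The arrays came from 3 slides. Slide 1 carried both control 1 and control 2 together with soy 1, slide 2 carried soy 2 alone, and slide 3 carried control 3 beside soy 3. Soy arrays had fewer spots well above background (31308 to 32498) than control arrays (36366 to 38163), and the part of this in the Klf values was not tested. Of the 14 Klf probes, 12 were well above background on all 6 arrays. With 3 arrays in each group, precision is limited by their number. In whole tissue, fewer cells of a type and less RNA per cell cannot be told apart.

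The question was how these factors differed between the livers of mice on the soy-enriched and on the regular diet. Klf10 fell in soy livers, and none of the other 9 genes passed the test. A probe passed when its adjusted p from limma was under 0.05 and its fold change was above 1.5 or under 0.66. Of the 14 Klf probes 1 passed, where 0.350% of all probes did, and of all probes 0.141% passed as lower in soy. Of all genes, 0.458% passed by their brightest probe, so none passing is usual for a gene list as short as those below. By the brightest probe of each gene, 7 of the 10 had a lower mean in soy and 3 a higher one, with a median difference of -0.15. Over all genes 51.2% had a lower mean, and the median difference was -0.0057. Without control 1, 5 of the 10 Klf genes were lower, and their median lay between the differences of Klf11 (-0.092) and Klf12 (0.033). Without control 3 or without soy 3, 8 of the 10 were lower. The 7 include Klf4 (-0.021) and Klf11 (-0.15), which turned positive when arrays were aligned at their 75th percentile (0.029 and 0.0027), leaving 5 genes lower, whereas with slide as a block Klf11 was at -0.33. Control and soy values did not overlap for 2 of the 10 genes, Klf10 and Klf9, both lower in soy, beside 20.4% of all genes. Counted by probe these were 2 of 14, beside 18.0% of all probes (10.3% lower and 7.75% higher in soy).

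**Figure D1:**
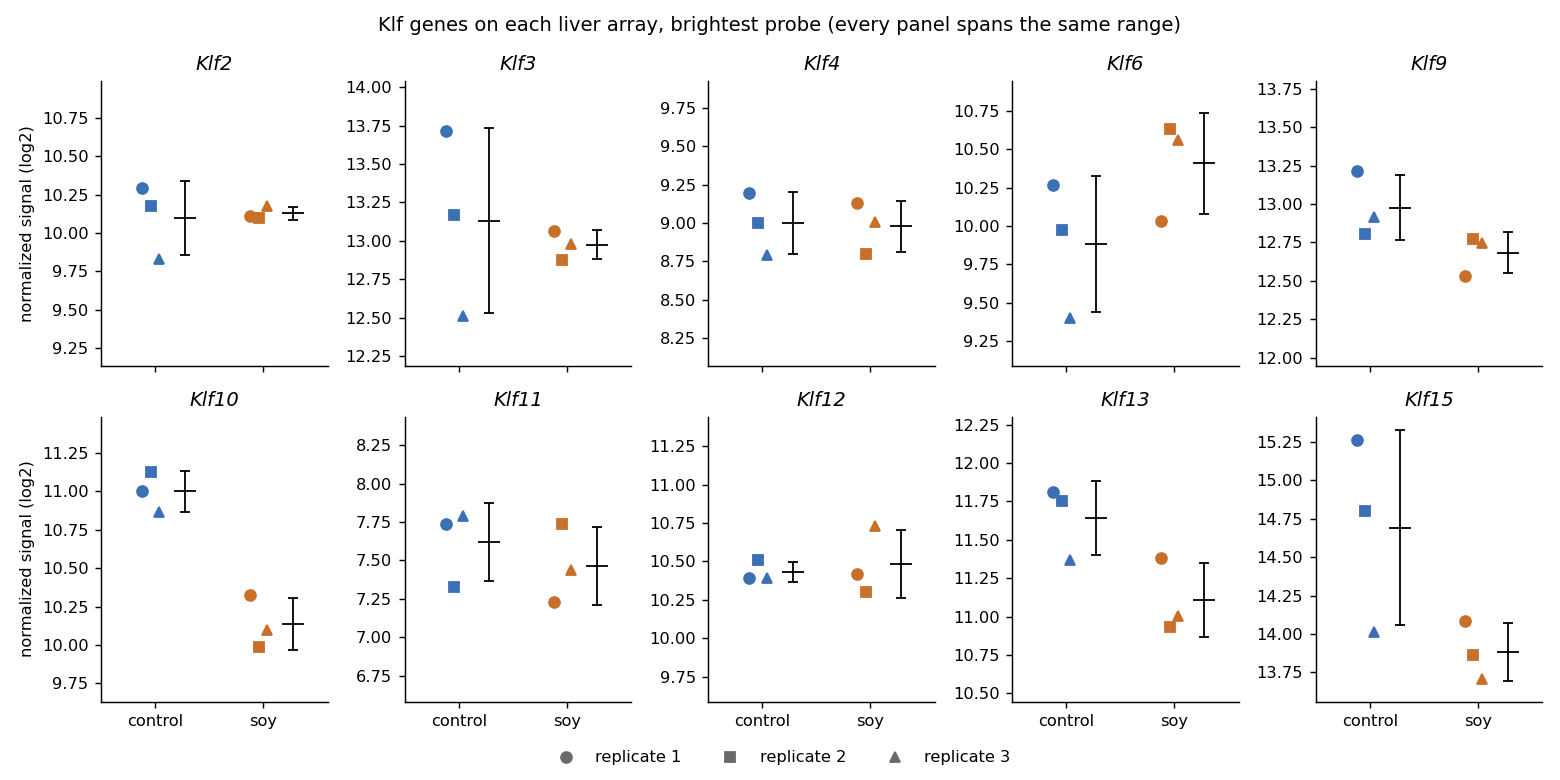
Normalized signal (log2, y axis) of the brightest probe of each of the 10 Klf genes on the 3 control arrays (blue) and the 3 soy arrays (orange), with marker shapes for replicate numbers and the group mean ± SD in black. Each panel covers the same log2 range around its own values. Klf10 lies between 10.87 and 11.13 on the control arrays and between 9.99 and 10.32 on the soy arrays, while the control arrays of Klf3 and Klf15 are widely spread.

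Klf9, Klf10, Klf11 and Klf13 share a short N-terminal region that binds the Sin3 corepressor. Klf10, also called TGF-beta-inducible early gene 1, is an early target of TGF-beta and a clock-controlled regulator of glucose metabolism in the liver. Its brighter probe (NM_013692) read 11.00, 11.13 and 10.87 in the livers of control 1 to 3 and 10.32, 9.99 and 10.10 in those of soy 1 to 3. Every soy array was below every control array, with a gap of 0.54 between the lowest control and the highest soy value. The control mean was 11.00 ± 0.13 and the soy mean 10.14 ± 0.17 (SD, n = 3 each). The difference was -0.86 (SE 0.13, limma adjusted p = 0.0473), 1.82-fold lower in soy, with a 95% confidence interval of 0.449 to 0.674 for the ratio of soy to control. The difference stayed between -0.96 and -0.79 when 1 array was left out, but in none of those 6 fits did the adjusted p stay under 0.05. Leaving out control 1, 2 or 3 gave an adjusted p of 0.113, 0.161 or 0.0689, and leaving out soy 1, 2 or 3 gave 0.0722, 0.164 or 0.163.

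Within slides, Klf10 was lower in soy by similar amounts, with a difference of -0.74 on slide 1 and of -0.77 on slide 3. When slide was added to the model, a fit in which soy 2 carries no information, the difference was -0.75 and the adjusted p 0.160. With an offset of 16 in the background correction it was -0.88, with an adjusted p of 0.104. The second Klf10 probe (NM_001289471) was well above background on just 1 control and 1 soy array. It read 6.91, 6.34 and 6.28 in control and 6.10, 6.34 and 7.19 in soy livers. These groups overlapped widely, with a difference of 0.032 (SE 0.29) and a 95% confidence interval of -0.65 to 0.72. For this probe the difference was 0.92 (SE 1.0) with the processed signal and 0.22 (SE 0.27) with the 75th-percentile shift.

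**Figure D2:**
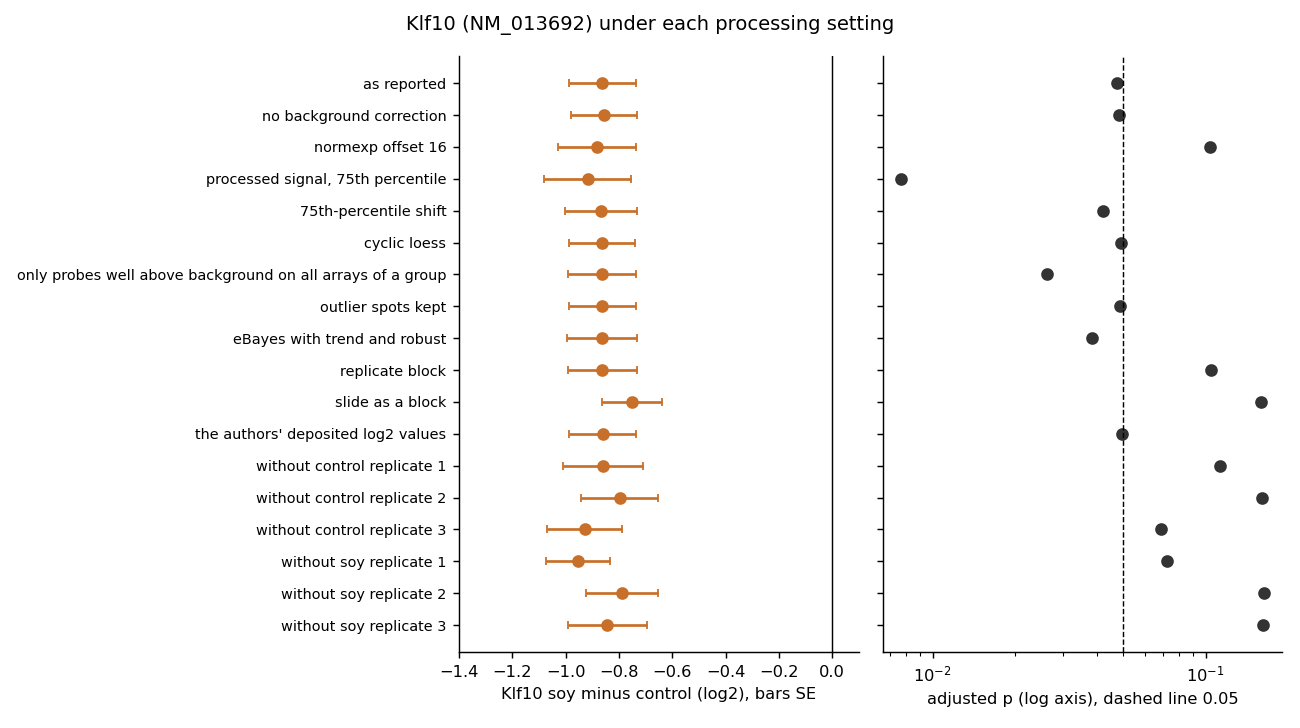
Soy minus control difference of Klf10 (left, log2, bars are SE) and its adjusted p (right, log axis, dashed line at 0.05) under the reported processing, each alternative and each fit without 1 array. The difference stays between -0.96 and -0.75, and the adjusted p lies between 0.00765 and 0.164, on both sides of the threshold.

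Klf13, a regulator of lymphocyte and cardiac genes that is widely expressed, read 11.81, 11.75 and 11.37 in control and 11.38, 10.94 and 11.00 in soy livers (NM_021366). The groups met at control 3, which lay just below soy 1. The difference was -0.54 (SE 0.17, adjusted p = 0.279), with a 95% confidence interval of -0.93 to -0.15. Within slide 1 it was -0.40 and within slide 3 it was -0.36. Klf13 was thus lower in soy in both slides, but it did not pass the test over all probes.

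Klf9, a gene induced by glucocorticoids and thyroid hormone, read 13.21, 12.80 and 12.91 in control and 12.53, 12.77 and 12.74 in soy livers (NM_010638). The groups did not overlap, but control 2 and soy 2 lay only 0.031 apart. The difference was -0.29 (SE 0.14, adjusted p = 0.471), with a 95% confidence interval of -0.61 to 0.023. Without control 1 it was -0.18, and without any other single array it lay between -0.38 and -0.22. Klf11, known from an inherited form of diabetes, overlapped between the groups (7.33 to 7.79 in control, 7.23 to 7.73 in soy). Its difference was -0.15 (SE 0.17, adjusted p = 0.789), and its 95% confidence interval, -0.56 to 0.25, leaves room for changes in either direction. Leaving out control 1, 2 or 3 gave -0.092, -0.30 or -0.065 for Klf11, and leaving out soy 1 or soy 2 gave -0.032 or -0.29. Within slide 1 it was -0.30 and within slide 3 it was -0.35.

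Klf15, an activator of amino acid breakdown and gluconeogenesis in the fasted liver, read 15.27, 14.80 and 14.01 in control and 14.08, 13.86 and 13.71 in soy livers (NM_023184). Control 1 and control 2 were above all soy arrays, whereas control 3 lay below soy 1. The mean was 14.69 ± 0.64 in control and 13.89 ± 0.19 in soy livers. The difference of -0.81 (SE 0.29) was close to that of Klf10 in size, but the spread of the control livers was larger and the adjusted p was 0.347. It was -1.15 without control 3 (adjusted p = 0.0787) and -0.52 without control 1 (adjusted p = 0.571). Within slide 1 the difference was -0.95 and within slide 3 it was -0.30.

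Of the 4 genes with the largest negative differences, Klf10, Klf15, Klf13 and Klf9, the RefSeq promoter table (assembly GRCm38.p6, windows of 300 bases from 250 before the start site) holds the last 3. Their sequence from 120 bases before to 20 bases after the start is shown because the KLF proteins themselves bind CACCC and GC boxes, and clock factors bind E-boxes. Capitals mark CACCC boxes (CACCC or GGGTG), GC boxes (GGGCGG or CCGCCC) and E-boxes (CACGTG) on either strand. The lines give Klf15 (chr6:90462456-90462595, plus strand), Klf13 (chr7:63938896-63939035, minus strand) and Klf9 (chr19:23141106-23141245, plus strand), each read along its gene.
Klf15: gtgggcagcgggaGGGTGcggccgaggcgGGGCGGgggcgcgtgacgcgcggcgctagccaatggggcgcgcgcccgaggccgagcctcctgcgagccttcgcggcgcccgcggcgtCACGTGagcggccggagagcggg
Klf13: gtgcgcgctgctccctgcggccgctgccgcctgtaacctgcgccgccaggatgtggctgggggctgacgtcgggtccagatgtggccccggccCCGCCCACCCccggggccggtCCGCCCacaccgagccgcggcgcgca
Klf9: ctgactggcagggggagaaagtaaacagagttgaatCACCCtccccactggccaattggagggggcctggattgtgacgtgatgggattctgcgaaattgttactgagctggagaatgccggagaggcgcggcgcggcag
The Klf15 stretch holds an E-box across the start site, and its whole window holds 3, where 7.15% of all 32851 promoter windows hold at least 1. In the Klf13 stretch a GC box and the CACCC box share 1 base. The Klf9 stretch holds 1 CACCC box and its window no GC box and no E-box.

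Windows were found for 9 of the 10 genes, Klf10 being the exception. Of these 9, 6 held a CACCC box (57.5% of all windows), 7 a GC box (35.7%) and 4 an E-box (7.15%). The windows with an E-box were those of Klf4, Klf6, Klf11 and Klf15, of which none passed the test on the arrays and Klf6 had a higher mean in soy. Their GC content was between 45.7% for Klf12 and 77.7% for Klf11, with a median of 52.7% over all windows, and all but that of Klf12 lay above this median. A match of these letters is a description of the sequence and not a measured binding site.

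Klf6, an early response gene of injured liver, was the member with the largest higher mean in soy. It read 10.27, 9.98 and 9.40 in control and 10.03, 10.63 and 10.56 in soy livers (NM_011803). Soy 2 and soy 3 were above all control arrays, whereas soy 1 lay among them. The difference was 0.53 (SE 0.25, adjusted p = 0.475), with a 95% confidence interval of 0.968 to 2.14 for the ratio of soy to control. It was 0.29 without control 3 and lay between 0.41 and 0.72 without any other single array. Within slide 3 soy 3 exceeded control 3 by 1.16, while within slide 1 the difference was -0.091. Stellate cell markers did not pass in either direction: 0 of 8 did, with a median difference of -0.12 (-0.046 without control 1), and their summed signal was between 15.45 and 15.66 on control and between 15.38 and 15.54 on soy arrays. Dcn was the brightest of them, and their part in the Klf6 values was not tested.

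The endothelial factors Klf2 and Klf4, which flowing blood induces and which keep the vessel wall quiescent, showed no detectable difference. Klf2 read 10.29, 10.17 and 9.83 in control and 10.11, 10.10 and 10.18 in soy livers (NM_008452). The soy values lay within the range of the control values. The difference was 0.030 (SE 0.13, adjusted p = 0.954), with a 95% confidence interval of -0.28 to 0.34. For Klf4 (NM_010637) control values were 8.79 to 9.20 and soy values 8.80 to 9.13. Its difference was -0.021 (SE 0.14, adjusted p = 0.971), with an interval of -0.35 to 0.30. A change of 1.5-fold or more in either gene lies outside these intervals. For Klf4 the sign turned with the processed signal (0.038), the 75th-percentile shift (0.029), cyclic loess (0.0021) and slide as a block (0.11).

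Endothelial cell markers were counted beside these genes, with 0 of 10 passing, a median difference of -0.00018 (-0.037 to 0.065 when 1 array was left out) and a summed signal of 15.57 to 15.60 on control and 15.60 to 15.78 on soy arrays. Clec4g was the brightest. Of the 8 endothelial targets of Klf2 and Klf4, none passed and 7 had a lower mean in soy, with a median of -0.071 (-0.046 without soy 1). That median turned positive with the processed signal (0.0013) and with arrays aligned at their 75th percentile (0.032). Among the 7, Sele (-0.071) was well above background on no array, and Edn1 (-0.039) and Slc2a3 (-0.071) on no soy array. Thbd, the anticoagulant receptor thrombomodulin, was 9.12 ± 0.42 in control and 8.01 ± 0.15 in soy livers, without overlap. Its difference was -1.11 (SE 0.21, adjusted p = 0.0867). Vcam1, an adhesion molecule that these factors are known to repress, was 10.93 ± 0.48 in control and 9.90 ± 0.37 in soy livers, also without overlap, a difference of -1.03 (SE 0.27, adjusted p = 0.194). Nos3, endothelial nitric oxide synthase, which like Thbd is a target that they activate, differed by -0.038 (SE 0.11, adjusted p = 0.927).

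Klf3 and Klf12 recruit the corepressor CtBP and mainly silence genes. The brighter Klf3 probe (NM_008453) read 13.71, 13.17 and 12.51 in control and 13.07, 12.88 and 12.98 in soy livers. Its control values spanned the soy values on both sides. The dimmer probe of the same transcript read 11.07, 10.93 and 10.65 in control and 11.19, 10.88 and 11.16 in soy livers. The probes differed in sign, with -0.16 (SE 0.27, adjusted p = 0.865) and 0.20 (SE 0.14, adjusted p = 0.658), and their mean gave 0.019. Without control 3 they were -0.47 and 0.079, and without control 1 the brighter one was 0.13. The dimmer one was 0.30 without soy 2 and 0.33 with slide as a block. The 3 Klf12 probes differed by 0.053 (XM_011244968), 0.045 and 0.092 (both NM_010636), with adjusted p between 0.911 and 0.922. The dimmest of them was well above background on 2 of 3 soy arrays and on all control arrays. The 95% confidence interval of the brightest Klf12 probe was -0.25 to 0.36, so that a change of 1.5-fold lies outside it, while for the brighter Klf3 probe the interval of -0.79 to 0.47 includes such a decrease.

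**Figure D3:**
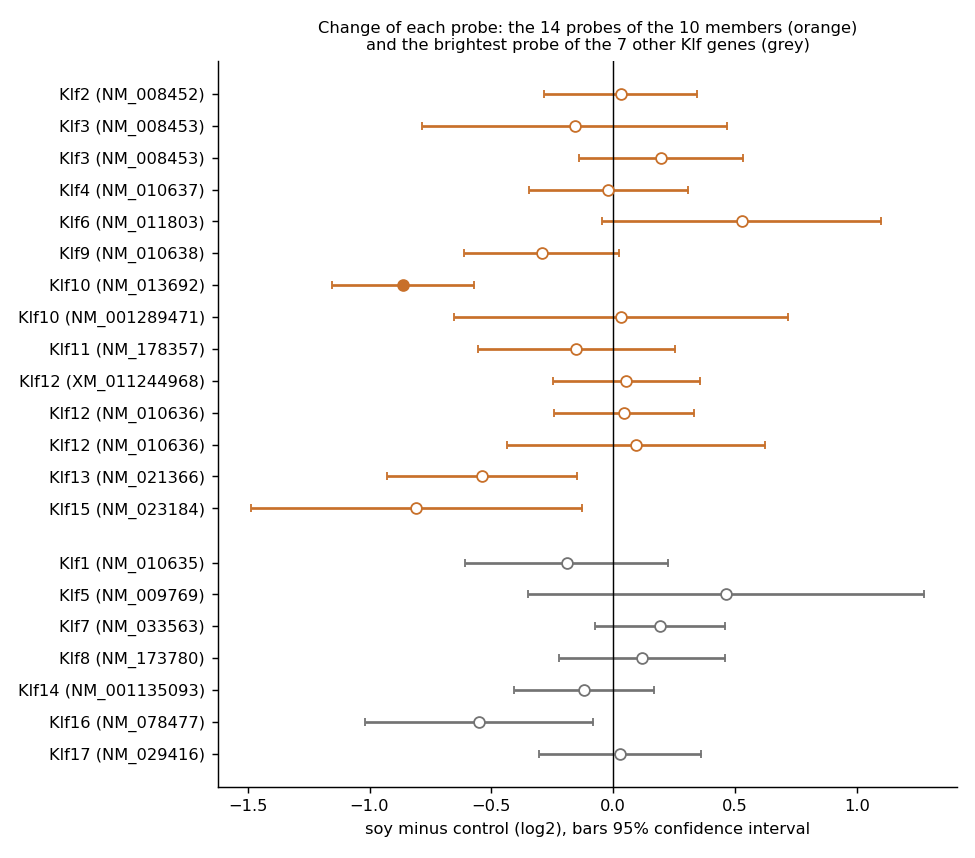
Soy minus control difference (log2, x axis) with its 95% confidence interval for the 14 probes of the 10 Klf genes (orange) and for the brightest probe of 7 further Klf genes (grey). Filled points passed the test and open points did not, and the only filled point is Klf10 at -0.86.

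The control livers differed widely among themselves for some of these genes. Control SDs were 0.64 for Klf15, 0.60 for Klf3 and 0.44 for Klf6, against a median of 0.16 and a 90th percentile of 0.38 over the 13500 genes whose brightest probe was well above background on all arrays. Klf10 (0.13) and Klf12 (0.067) had control SDs below that median. Control 3 was the lowest of the control livers for 7 of the 10 Klf genes, where this held for 36.0% of the 13500 genes, and this count was made after the values had been seen. Control 3 and soy 3 share slide 3, whereas the other control arrays lie on slide 1.

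**Figure D4:**
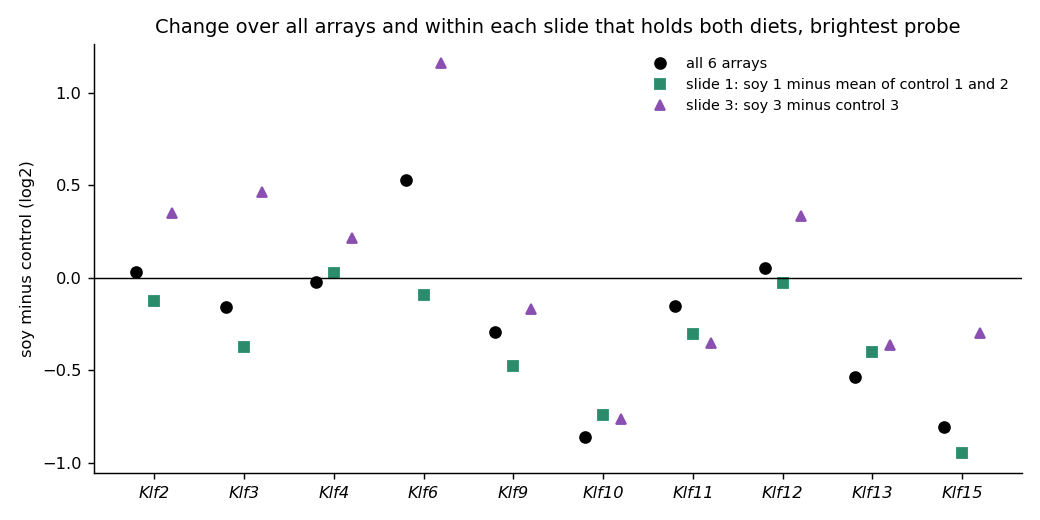
Soy minus control difference (log2, y axis) of the brightest probe of each Klf gene over all 6 arrays (black), within slide 1 (green, soy 1 against the mean of control 1 and control 2) and within slide 3 (purple, soy 3 against control 3). Klf9, Klf10, Klf11, Klf13 and Klf15 lie below 0 in both slides, whereas Klf2, Klf3, Klf6 and Klf12 change sign between the slides.

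The rest of the Klf family and the related Sp factors, which bind the same GC boxes, were read from the same fit. Of the 7 further Klf genes none passed, 4 had a higher and 3 a lower mean, and the median difference was 0.026. Klf14 and Klf8 were well above background on no array. Klf5, an epithelial factor, was well above background on 1 soy array and on no control array. Klf16, another Sin3-binding member, had the largest difference among those well above background, -0.55 (SE 0.20, adjusted p = 0.354), from 9.86 ± 0.40 to 9.31 ± 0.16 without overlap, and the difference was -0.34 without control 1. Of the 9 Sp genes none passed, 5 were higher and 4 lower in mean, and the median was 0.043. These counts include Sp7, Sp8 and Sp9, which were well above background on no array. Sp6 had the largest difference (-0.44, SE 0.13, adjusted p = 0.251), and Sp1, the widely expressed founder of the group, differed by 0.31 (SE 0.11, adjusted p = 0.351). With arrays aligned at their 75th percentile, which moved the median of all probes from -0.010 to 0.13, the medians were 0.19 for these Klf genes and 0.11 for the Sp genes. Both medians crossed 0 when 1 array was left out, ranging from -0.058 to 0.12 and from -0.022 to 0.064, so neither list had a settled direction.

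Among cofactors and ubiquitin ligases that act on KLF proteins, 0 of 14 passed, beside 0.458% of all genes. Means were higher for 8 and lower for 6, and the median of 0.032 ranged from -0.047 to 0.071 when 1 array was left out. Sin3a, the corepressor bound by Klf9, Klf10, Klf11, Klf13 and Klf16, had the largest difference in this list. It was 9.99 ± 0.058 in control and 9.48 ± 0.13 in soy livers, without overlap, a difference of -0.51 (SE 0.11, adjusted p = 0.119). The CtBP genes that serve Klf3 and Klf12 were closer to 0, with 0.085 (adjusted p = 0.840) for Ctbp1 and -0.14 (adjusted p = 0.774) for Ctbp2, and they ranged from -0.011 to 0.15 and from -0.29 to -0.044 when 1 array was left out. Wwp1, a ligase that marks Klf2 for degradation, differed by 0.26 (SE 0.095, adjusted p = 0.343), with each soy array above each control array.

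Of 12 genes of amino acid catabolism and gluconeogenesis linked to Klf15, none passed, 10 had a lower and 2 a higher mean in soy, and the median was -0.27 (-0.44 without soy 1). Pck1, the cytosolic phosphoenolpyruvate carboxykinase of gluconeogenesis, had the largest difference, -0.84 (SE 0.13, adjusted p = 0.0576). G6pc, which releases free glucose, differed by -0.71 (SE 0.25, adjusted p = 0.324) and Tat, which breaks down tyrosine, by -0.76 (SE 0.26, adjusted p = 0.324), both with overlap. The urea cycle genes Cps1 (-0.47, adjusted p = 0.178) and Ass1 (-0.55, adjusted p = 0.174) were lower on every soy array. Prodh and Gpt, genes that Klf15 is known to activate, differed by -0.30 (adjusted p = 0.574) and -0.23 (adjusted p = 0.655). When 1 array was left out, Prodh ranged from -0.48 without soy 1 to -0.18 without soy 3, and Gpt from -0.40 without soy 1 to -0.13 without soy 2.

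In the TGF-beta pathway, which induces Klf10, 0 of 10 genes passed, 8 had a lower and 2 a higher mean, and the median was -0.10 (-0.15 without control 1, -0.049 without soy 2 and -0.16 without soy 3). Smad7, the pathway inhibitor that Klf10 is known to repress, was well above background on all control arrays and on no soy array. Its difference was -0.34 (SE 0.10, limma adjusted p = 0.253), 1.26-fold lower in soy. The fold was the same with, on each soy array, the higher of the probe's own signal and the dimmest signal well above background. It is thus an estimate and not a lower limit. Tgfb1 itself differed by -0.025 (SE 0.13, adjusted p = 0.958), and ranged from -0.13 without control 1 to 0.075 without control 3.

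Lists of glucocorticoid-responsive and of clock genes were read as well, since Klf9, Klf10 and Klf15 are known to respond to one or both. Of 10 glucocorticoid-responsive genes none passed, 9 had a lower mean in soy, and the median was -0.85, with Mt2, a metallothionein, at -4.65 (SE 0.77, adjusted p = 0.0668) and the receptor chaperone Fkbp5 at -1.18 (SE 0.27, adjusted p = 0.146). The median was -0.49 without control 1 and -1.34 without control 3. Clock genes with a morning peak had a higher mean in 6 of 6 cases (median 0.70, Arntl 1.79 with adjusted p = 0.210), and those with an evening peak a lower one in 10 of 10 (median -0.70, Dbp -2.59 with adjusted p = 0.300, or -1.49 without soy 3), without any gene passing. Among the latter Hlf was near 0 (-0.0044) and turned positive without control 2 (0.26), soy 2 (0.20) or soy 3 (0.15), and among the former Npas2 was above background on no array. The hour at which the livers were collected is not given in the sources used here. Per1 is counted both among the evening genes and among the glucocorticoid-responsive genes. The part of either system in the Klf values was not tested.

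The gene whose pattern over the 6 arrays was closest to that of Klf10 was Pck1. Likeness was the root mean square difference of log2 signals after each probe was centred on its own mean, taken over 13499 other genes well above background on all arrays. It was 0.038 for Pck1, where the median gene had 0.47 and the 5th percentile was 0.30. The next were Gstm6 (0.080), a mu-class glutathione transferase, Sult1d1 (0.087), a sulfotransferase, Klk1b24 (0.096), a kallikrein, and Hs6st1 (0.10), a heparan sulfate sulfotransferase. Pck1 read 17.81, 17.85 and 17.55 in control and 17.09, 16.75 and 16.85 in soy livers. Control 3 was the lowest control and soy 1 the highest soy array for both genes. Pck1 was picked for its closeness on these same 6 arrays, so the shared order follows from the choice. Of these 5 genes, Hs6st1 passed the test (-0.74, adjusted p = 0.0460).

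**Figure D5:**
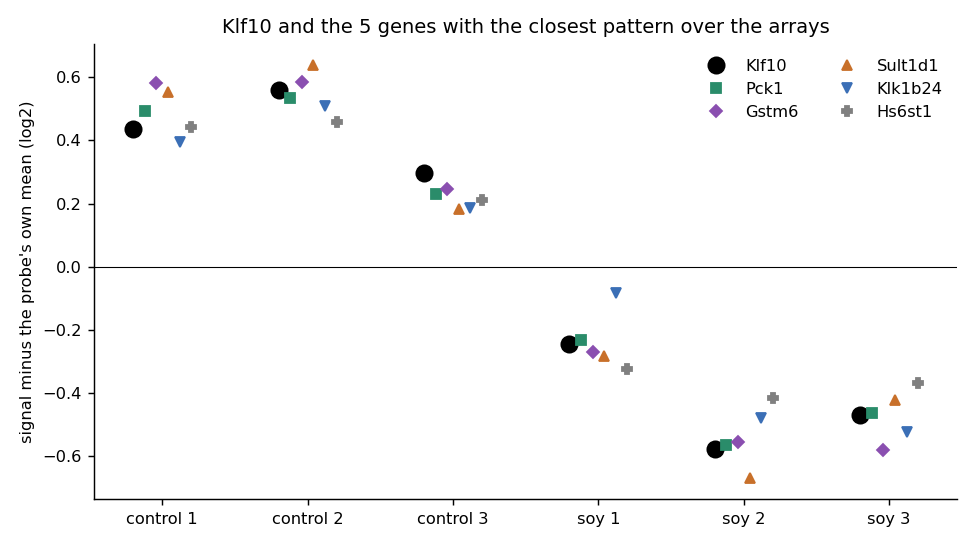
Log2 signal minus the probe's own mean over the 6 arrays (y axis) on each array (x axis) for Klf10 (black) and the 5 genes closest to it. All 6 genes lie above 0 on the 3 control arrays and below 0 on the 3 soy arrays. The 5 genes were chosen by these same values, so their likeness follows from the choice. Pck1 follows Klf10 most closely, with a root mean square difference of 0.038.

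Markers of the cell types that whole liver holds were counted beside these values. Of hepatocyte markers 0 of 8 passed (median -0.10, or -0.16 without soy 1 and -0.027 without soy 3, Apob 0.46), and their summed signal was 21.12 to 21.18 on control and 21.01 to 21.11 on soy arrays, with Serpina1a the brightest. Of Kupffer cell markers 0 of 8 passed (median 0.19, from 0.042 without control 1 to 0.31 without control 3, Marco -0.73), with a summed signal of 15.24 to 15.92 on control and 15.57 to 16.12 on soy arrays and Cd5l the brightest. Of cholangiocyte markers 0 of 6 passed (median 0.011, from -0.053 to 0.048 when 1 array was left out and 0.14 with the 75th-percentile shift, Sox9 -0.16), with a summed signal of 11.38 to 11.86 and 11.35 to 11.84 and Spp1 the brightest. Epcam was well above background on no array. Of the 10 blood cell markers, Ms4a1, the B cell antigen CD20, rose by 0.93 (SE 0.13, adjusted p = 0.0394), and the others did not pass. Its probe was dim, and 1 of the 3 control arrays did not read it well above background. The median of that list was 0.31 (0.13 without control 2, 0.18 without soy 2), and its summed signal was 17.01 to 17.53 on control and 17.15 to 18.18 on soy arrays, Hba-a1 being the brightest. Lyve1 (-0.67) had the largest difference among the endothelial and Colec11 (-0.33) among the stellate cell markers, but without control 1 these were -0.037 and -0.12. Without control 3 Marco was at -0.20, and without soy 2 Sox9 was at -0.050. The part of any cell type in the Klf values was not tested.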

How the data were processed

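RNA was measured in 6 livers, 3 control and 3 soy, with 1 single-colour Agilent G3 Mouse array each. The authors deposited Agilent Feature Extraction 11.5.1.1 output, in which spot and local background brightness are given as median intensities, neither corrected nor scaled, next to a processed signal. They also deposited log2 values of the same arrays, which were an alternative here. The methods name raw median signals and limma, and no background correction or normalization. Chosen here were normexp (offset 50) and quantile normalization of the median intensities, taken to log2. Outlier spots, as Feature Extraction marks them, were dropped and replicate spots averaged per probe. All 56605 probes were fitted with limma 3.58.1 in R 4.3.3, with Benjamini-Hochberg adjustment over all of them. The p-values rest on the spread between mice. Symbols came from RefSeq accessions (58.3% of probes); probe positions are not given, because the array annotation follows another build than the promoter windows, the only sequences placed on the genome. The brightest probe describes a gene. The Klf genes, the 15 gene lists (general knowledge) and the tests were chosen with earlier results of these data known. Every Klf probe was named, and of each list the genes that passed and the largest change among probes detected on every array of either group; further list genes were named after their values were seen, and some list genes are not reported here. The fit was tested on simulated data. Plots used Python 3.11.15 and matplotlib 3.10.9.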

Additional observations from a re-analysis of the deposited data

How the results depend on the processing

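The decrease of Klf10 kept its direction in all fits tried and its call in 8 of the 11 alternatives that left out no array. Among the 8, the adjusted p was 0.0482 without background correction, 0.0487 with outlier spots kept, 0.0492 with cyclic loess and 0.0496 with the deposited values. The rest lay between 0.00765 (processed signal) and 0.0420 (75th-percentile shift). Klf10 lost the call with an offset of 16, with the replicate block and with slide as a block, each of which left 0 Klf probes passing, as did each fit without 1 array (0 to 0 probes). No other Klf probe passed in any setting. Of all probes, 198 passed (118 higher, 80 lower), against 77 with an offset of 16, 299 with a 75th-percentile shift, 497 with only probes well above background, 25 with slide as a block and 25 to 203 without 1 array. The processed signal gave 13138, of which 90.8% were higher, against 59.6% in the reported fit and 67.6% of those with the 75th-percentile shift. The median change of all probes was 0.13 with both of these scalings, against -0.010, and the cause was not tested. With the replicate number as a block, 78 probes passed and Klf10 had an adjusted p of 0.105. The numbers do not pair the mice, since deviations of same-numbered arrays correlated at 0.12, -0.059 and 0.13, so the replicate block is only an alternative. Differences near 0 changed sign. Klf4 gave 0.038 with the processed signal, 0.029 with the 75th-percentile shift, 0.0021 with cyclic loess and 0.11 with slide as a block. Klf11 gave 0.0027 with the 75th-percentile shift, the dimmer Klf12 probes -0.057 and -0.17 with slide as a block, and Klf3 0.019 as the mean of its probes. Without 1 array, the ranges that crossed 0 were -0.11 to 0.13 for Klf2, -0.47 to 0.13 for the brighter Klf3 probe, -0.12 to 0.079 for Klf4, -0.29 to 0.25 for the dimmer Klf10 probe and -0.069 to 0.14, -0.021 to 0.15 and -0.089 to 0.35 for the Klf12 probes. The largest gap between a deposited log2 value and the one used here was 0.071.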
